A study of Homo sapiens with 12 samples.

Results

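The transcriptional effect of dauricine in cells also given osimertinib was measured by setting the 3 libraries of PC9-OR cells given both compounds (DAC+OSI) against the 3 libraries given osimertinib without dauricine (OSI). These are 6 of the 12 libraries of the study, and every gene of the table was considered: 39266 genes were listed and 20820 passed a filter on low counts and were tested. All cells carry the same labels for line and type, PC9-OR and NSCLC (non-small cell lung cancer), so the labels set the groups apart only by treatment. Differences that the labels do not record remain possible, and the labels give no dose, duration or vehicle. PC9 is an established lung adenocarcinoma line with an activating EGFR mutation, and the series' title places PC9-OR among models of osimertinib resistance; the labels do not say if it is a clone or a pool. The other 6 libraries, 3 of untreated cells (Control) and 3 of cells given dauricine alone (DAC), entered the same fit and served to ask whether dauricine acted differently without osimertinib. The series' title ties dauricine to SAT1 and to ferroptosis, so the genes of that pathway were followed individually.

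Osimertinib is a covalent inhibitor of mutant EGFR, a receptor kinase that signals through ERK. Dauricine is a bisbenzylisoquinoline alkaloid from the moonseed Menispermum dauricum. Ferroptosis is an iron-dependent form of cell death in which polyunsaturated phospholipids are peroxidised. ACSL4 supplies those lipids, TFRC and ferritin turnover supply the iron, and GPX4 with glutathione repairs the damage. SAT1 acetylates spermidine and spermine, the first step of polyamine breakdown. Cholesterol and fatty acid synthesis are controlled by the SREBP factors, which are released from the endoplasmic reticulum when membrane sterol falls.

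Levels are given as counts of a gene per mega-count (M) of its library (CPM) on a scale adjusted by the trimmed mean of M values, as mean ± SD over 3 libraries, and standard errors (SE) belong to log2 fold changes. Calls were made by the quasi-likelihood test of edgeR with Benjamini-Hochberg adjustment and a threshold of 0.05. The labels do not state if replicate libraries derive from independent cultures, so p-values measure only the spread among these libraries, and that spread may be technical. In bulk samples fewer cells of a type and less RNA per cell cannot be told apart.

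One library stood apart within its group. DAC+OSI 2 held 24.9 M counts, against 54.1 and 66.9 M for DAC+OSI 1 and 3 and 41.1 to 47.6 M for the OSI libraries. In a principal component analysis of the 6 libraries, the first component (51.8% of the variance) placed OSI between -52.41 and -47.32, DAC+OSI 1 and 3 at 16.54 and 23.47 and DAC+OSI 2 at 108.7. Deviations of its genes from the group mean tracked GC content with a Spearman rho of 0.573 over 20443 genes, opposite in sign to DAC+OSI 1 (-0.507) and DAC+OSI 3 (-0.52). DAC+OSI 2 was the highest library of its group for 57.4% of the genes called higher and for 42.2% of all genes tested. Results are therefore given with and without it where it decides them. Mitochondrially encoded genes took 14.33% to 18.56% of counts in OSI and 11.23% to 13.24% in DAC+OSI, so those ranges did not overlap.

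Defining markers were checked against the label. KRT7, KRT8, KRT18, KRT19, EPCAM and CDH1 were present in every library, and none of the 8 tested members of the lung adenocarcinoma list was called. Their summed level ran from 12500 to 14300 CPM in OSI and from 12900 to 20300 CPM in DAC+OSI. The lung lineage markers NKX2-1, SFTPB and SFTA2 were too low to be tested, with 13, 10 and 0 counts over the 3 OSI libraries. Genes listed as markers of other cell types were low, and some rose in DAC+OSI while others fell or were not called. The summed level of 8 fibroblast markers was 18.0 to 19.7 CPM in OSI and 35.8 to 109 CPM in DAC+OSI, with 3 of 6 tested members higher and 1 lower, and DCN at 0 counts in 11 of 12 libraries. The summed level of 8 immune markers was 9.48 to 10.1 CPM in OSI and 19.0 to 64.8 CPM in DAC+OSI, with 6 of 8 higher and 3 of 8 higher without DAC+OSI 2. The summed level of 6 endothelial markers was 10.7 to 13.4 CPM in OSI and 12.6 to 28.5 CPM in DAC+OSI, with 2 of 3 tested members higher, 1 higher and 1 lower without DAC+OSI 2, and KDR at 0 counts in 10 of 12 libraries. In each of these lists the highest DAC+OSI sum was above every OSI library, but the endothelial ranges overlapped. The part of such cells or transcripts in the results below was not tested.

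Dauricine on top of osimertinib changed 3533 genes, which is 17% of those tested. Of these, 1875 rose (9.01% of genes tested) and 1658 fell (7.96%), and 2862 were protein coding. The libraries of the groups did not overlap for 32.1% of genes tested. More than 4-fold changes were called for 435 genes that rose and 200 that fell. Enzymes of cholesterol and fatty acid synthesis were among the largest rises, and the lists of replication and mitosis genes had the highest shares of falls among the 47 lists examined. Without DAC+OSI 2, 5836 genes were called, among them 3286 of the 3533, and no gene was called in the opposite direction. The shares of 9.01% and 7.96% are the background for the list counts below. Without DAC+OSI 2 that background was larger, with 2802 of the 20820 genes called higher and 2990 lower.

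**Figure D1:**
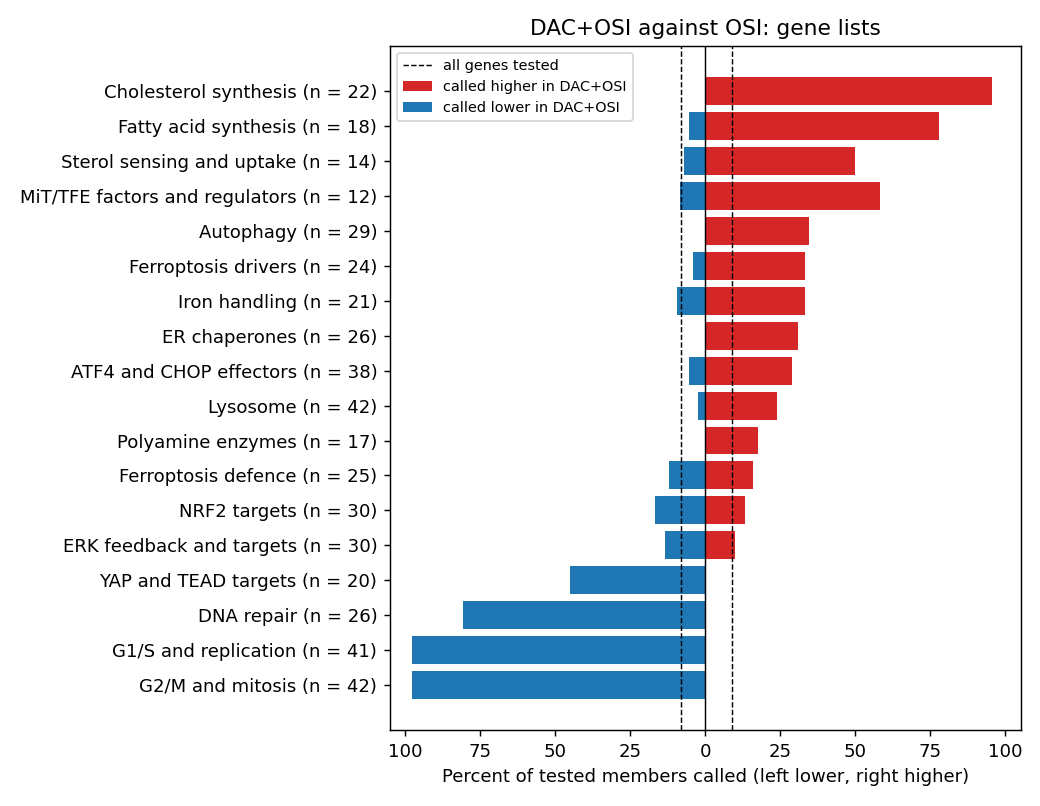
Percent of tested members of 18 gene lists called higher (red, to the right) or lower (blue, to the left) in DAC+OSI than in OSI. Dashed lines mark 9.01% higher and 7.96% lower over all genes tested; the number of tested members stands beside each list, and the bars for cholesterol synthesis and for the 2 cell cycle lists fill nearly the whole axis on their side.

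The promoters of some of the genes that moved are shown first, with the matches to short motifs known from these pathways that were searched there. Each is the 250 bases before the transcription start from RefSeq (GRCh38.p14), 5′ to 3′ on the gene's strand, with motif matches on either strand in capitals and no overlap between matches. Motifs were the core sterol regulatory element TCACNCCAC, bound by SREBP; CCAAT, bound by NF-Y, which works beside SREBP; the cell cycle homology region TTTGAA; and TCACGTGA, the E-box of lysosomal genes bound by MiT/TFE factors. SREBF2 encodes an SREBP itself and held the sterol element 133 bases before its start. HMGCS1, MVK and FDPS make the isoprenoid precursors of cholesterol.
SREBF2 promoter, chr22:41832855-41833104, plus strand: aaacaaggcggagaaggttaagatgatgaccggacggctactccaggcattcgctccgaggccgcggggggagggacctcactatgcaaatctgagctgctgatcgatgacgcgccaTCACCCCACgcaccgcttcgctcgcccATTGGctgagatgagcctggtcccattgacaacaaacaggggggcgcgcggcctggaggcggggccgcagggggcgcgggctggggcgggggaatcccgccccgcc
HMGCS1 promoter, chr5:43313413-43313662, minus strand: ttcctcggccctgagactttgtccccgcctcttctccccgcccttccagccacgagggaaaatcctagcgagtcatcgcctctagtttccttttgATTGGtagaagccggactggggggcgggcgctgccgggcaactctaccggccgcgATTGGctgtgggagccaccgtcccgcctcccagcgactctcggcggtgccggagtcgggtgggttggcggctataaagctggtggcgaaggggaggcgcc
MVK promoter, chr12:109573544-109573793, plus strand: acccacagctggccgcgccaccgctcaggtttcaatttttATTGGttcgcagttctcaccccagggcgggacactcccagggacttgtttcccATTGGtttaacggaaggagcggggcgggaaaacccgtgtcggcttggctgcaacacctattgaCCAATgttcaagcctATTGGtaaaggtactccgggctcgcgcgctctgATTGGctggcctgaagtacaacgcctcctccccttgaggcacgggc
FDPS promoter, chr1:155308616-155308865, plus strand: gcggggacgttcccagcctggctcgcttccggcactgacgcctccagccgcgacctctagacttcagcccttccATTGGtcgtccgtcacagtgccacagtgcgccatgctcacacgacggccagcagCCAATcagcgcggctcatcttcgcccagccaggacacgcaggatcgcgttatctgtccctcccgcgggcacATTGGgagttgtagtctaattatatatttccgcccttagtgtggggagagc
A match is a description of the letters and not a binding site. CCAAT was found in 13 of the 17 cholesterol synthesis promoters available (76.5%) and in 35.7% of all 27305 promoters. TCACNCCAC was found in 1 of 11 promoters of the sterol sensing list, SREBF2, and in 1.15% of all promoters, with no match in the 17 cholesterol or the 17 fatty acid promoters; no match says only that these letters are not in this window.

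The promoters of CCNB2, BUB1B and KIF23, which act in mitotic entry, the spindle checkpoint and cytokinesis, carried TTTGAA within 55 bases of the start. All 3 genes fell.
CCNB2 promoter, chr15:59104896-59105145, plus strand: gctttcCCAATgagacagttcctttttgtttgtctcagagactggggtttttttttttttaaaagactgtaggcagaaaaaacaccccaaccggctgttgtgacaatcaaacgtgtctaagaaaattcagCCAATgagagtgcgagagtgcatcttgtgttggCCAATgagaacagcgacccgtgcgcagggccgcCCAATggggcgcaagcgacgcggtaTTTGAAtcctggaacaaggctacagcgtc
BUB1B promoter, chr15:40160819-40161068, plus strand: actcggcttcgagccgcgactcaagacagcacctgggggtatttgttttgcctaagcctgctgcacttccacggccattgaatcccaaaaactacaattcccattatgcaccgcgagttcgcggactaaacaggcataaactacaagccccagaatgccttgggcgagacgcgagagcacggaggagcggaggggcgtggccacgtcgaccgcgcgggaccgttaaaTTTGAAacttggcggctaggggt
KIF23 promoter, chr15:69414099-69414348, plus strand: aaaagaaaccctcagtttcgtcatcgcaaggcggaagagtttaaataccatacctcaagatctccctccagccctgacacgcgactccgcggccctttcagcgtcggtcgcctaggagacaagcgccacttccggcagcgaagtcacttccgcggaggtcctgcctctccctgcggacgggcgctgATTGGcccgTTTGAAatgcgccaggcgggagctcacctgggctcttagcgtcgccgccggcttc
TTTGAA was found in 24 of 35 promoters of the mitosis list (68.6%) and in 15.4% of all promoters, and CCAAT in 27 of 35 (77.1%). The last pair belongs to genes of acid organelles, the calcium channel MCOLN1 and the proton pump subunit ATP6V1G1, which rose. Of the 8 genes of the organelle lists whose promoters held TCACGTGA, these 2 were called and 6 were not.
MCOLN1 promoter, chr19:7522374-7522623, plus strand: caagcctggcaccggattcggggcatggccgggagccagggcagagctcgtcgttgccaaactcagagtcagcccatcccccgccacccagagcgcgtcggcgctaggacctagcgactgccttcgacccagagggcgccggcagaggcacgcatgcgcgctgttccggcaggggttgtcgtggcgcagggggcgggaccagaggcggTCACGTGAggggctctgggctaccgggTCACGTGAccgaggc
ATP6V1G1 promoter, chr9:114587519-114587768, plus strand: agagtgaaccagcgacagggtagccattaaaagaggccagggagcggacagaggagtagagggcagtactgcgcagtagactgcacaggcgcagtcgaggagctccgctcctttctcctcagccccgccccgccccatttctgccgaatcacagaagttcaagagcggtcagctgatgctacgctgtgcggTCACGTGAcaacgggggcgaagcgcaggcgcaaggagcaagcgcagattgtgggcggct
TCACGTGA was found in 6 of 28 lysosomal promoters (21.4%), in 2 of 12 of the proton pump (16.7%) and in 1.04% of all promoters.

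Genes of cholesterol synthesis rose almost without exception. Of 22 tested enzymes, 21 were called higher and 0 lower, with a median log2 fold change of 3.05 against 0.04 over all genes tested. The same count was obtained without DAC+OSI 2. HMGCS1, which condenses acetyl-CoA units into HMG-CoA, was at 46.38, 47.69 and 45.82 CPM in the OSI libraries and at 843.6, 499.9 and 820.4 CPM in the DAC+OSI libraries. Every DAC+OSI library was therefore far above every OSI library, with DAC+OSI 2 the lowest of its group, and the rise was 15.5-fold (log2 3.95, SE 0.22, adjusted p = 1.37e-07).

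MVD, the decarboxylase that yields isopentenyl diphosphate, was at 66.53, 57.7 and 60.86 CPM in OSI and at 696.7, 2794 and 733.2 CPM in DAC+OSI. Here DAC+OSI 2 was the highest by far, and the 22.8-fold rise became 11.4-fold without it (adjusted p = 2.88e-05 and 5.68e-10). MSMO1, a demethylase of the sterol ring, moved the other way within its group, with 710.9, 279.5 and 676.3 CPM in DAC+OSI against 40.06, 31.37 and 33.4 CPM in OSI. Its rise was 15.9-fold with all libraries and 19.5-fold without DAC+OSI 2. ACAT2, the first enzyme of the pathway, rose 14.3-fold, from 23.3 ± 2.12 to 332 ± 31.8 CPM. MVK and FDPS, whose promoters are shown above, rose 4.95-fold and 4.41-fold. DHCR7, which carries out the final reduction to cholesterol in the Kandutsch-Russell route, rose 9.98-fold, and 7.50-fold without DAC+OSI 2. FDFT1, the squalene synthase that commits the pathway to sterols, rose 4.57-fold. PMVK, the phosphomevalonate kinase, was the only member not called: its levels overlapped, with 18.22, 14.34 and 13.1 CPM in OSI and 14.52, 23.88 and 13.19 CPM in DAC+OSI (adjusted p = 0.672).

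The genes that sense and import sterol were more mixed. Of 14 tested members, 7 were higher and 1 lower, with a median log2 fold change of 0.51. INSIG1, which retains SREBP in the endoplasmic reticulum and is itself an SREBP target, went from 21.4, 22.21 and 26.35 CPM to 262.6, 369.4 and 293.5 CPM. No library overlapped, and the rise was 13.2-fold (log2 3.73, SE 0.17, adjusted p = 4.86e-08). TMEM97, a sterol-responsive binding partner of NPC1, rose 7.77-fold. The transcription factor genes moved less: SREBF2 rose 2.03-fold, from 266 ± 17.1 to 541 ± 153 CPM, and SREBF1 rose 1.62-fold (adjusted p = 0.00104 and 0.019). The SREBF1 call was made in 17 of 21 alternative analyses. Genes of sterol efflux included both directions, with 4 of 11 tested members higher and 1 lower. NPC1, which carries cholesterol out of the lysosome, rose 2.20-fold, and ABCA1, which exports it to apolipoproteins, fell 1.58-fold, from 70.4 ± 5.07 to 44.5 ± 5.73 CPM.

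Of 18 tested genes of fatty acid synthesis and acetyl-CoA supply, 14 were higher and 1 lower, with a median log2 fold change of 1.84. ACSS2 makes acetyl-CoA from acetate, and its level went from 99.93, 90.95 and 93.3 CPM in OSI to 1459, 1874 and 1530 CPM in DAC+OSI. The groups lay far apart and the rise was 17.1-fold (log2 4.10, SE 0.14, adjusted p = 5.17e-09). ACLY, which makes acetyl-CoA from citrate, rose 8.31-fold, from 160 ± 4.43 to 1326 ± 235 CPM. SCD, the desaturase that makes monounsaturated fatty acids, was at 1655, 1756 and 1888 CPM in OSI and at 12760, 9657 and 12630 CPM in DAC+OSI, a 6.61-fold rise (adjusted p = 9.56e-08). SCDP1, the SCD pseudogene, also rose, from 0.305 ± 0.213 to 5.31 ± 4.42 CPM; reads of the copies may have been split by the counting. FASN, the fatty acid synthase, was at 715.5, 785.6 and 757.7 CPM in OSI and at 3144, 9448 and 3287 CPM in DAC+OSI. Its 7.03-fold rise was 4.19-fold without DAC+OSI 2, which was the highest library. LPIN1, a phosphatidate phosphatase, rose 5.99-fold and ME1, a source of NADPH, rose 3.39-fold.

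**Figure D2:**
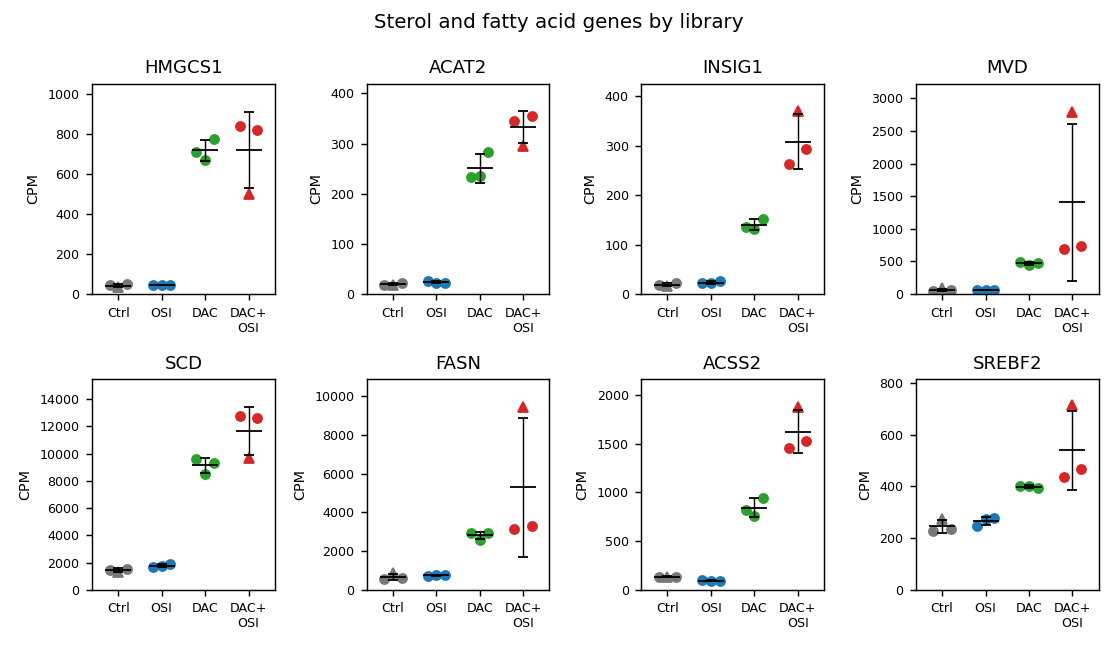
CPM by library (points; linear axis from 0) with mean and SD (bars) for 8 sterol and fatty acid genes in Control, OSI, DAC and DAC+OSI; triangles mark Control 2 and DAC+OSI 2, whose genes deviated with GC content. HMGCS1 sat at 45.82 to 47.69 CPM in OSI and at 499.9 to 843.6 CPM in DAC+OSI, and the triangle is the lowest DAC+OSI library for HMGCS1, ACAT2 and SCD and the highest for the other 5 genes.

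Dauricine raised the sterol genes without osimertinib too. Against Control, dauricine alone raised 20 of the 22 cholesterol genes and lowered 0, with a median log2 fold change of 2.59; over all genes 9.43% were called, 5.33% higher and 4.11% lower. The difference between the effects, that is dauricine's log2 fold change with osimertinib minus that without it, was called for 608 genes, 2.92% of those tested, and for 0 of the 22 cholesterol genes (0.32 at the median; 2 were called when DAC+OSI 2 was left out). HMGCS1 differed by -0.14 (SE 0.27, adjusted p = 0.868). Of the fatty acid list, ACSS2 rose more with osimertinib (difference 1.42, SE 0.18, adjusted p = 0.0011), as did ACLY (0.85, adjusted p = 0.039) and LPIN1 (0.83, adjusted p = 0.014). SCD5, a second stearoyl-CoA desaturase and the member of the list called lower, went the other way: it was at 66.36, 59.21 and 69.26 CPM in OSI and at 41.16, 24.37 and 41.35 CPM in DAC+OSI, with a log2 change of -0.86 and a difference between the effects of -1.32 (SE 0.27, adjusted p = 0.0204). NPC1 also rose more, by 0.72 on the log2 scale (adjusted p = 0.0373). Over all genes, 1070 were called in both comparisons, which is 30.3% of the calls on top of osimertinib and 54.5% of the calls for dauricine alone. These comparisons share no library. Of the 1070, 625 were higher in both, 396 lower in both and 49 opposite, and log2 fold changes of the 20820 genes correlated with a Pearson r of 0.482 and a Spearman rho of 0.425, across genes that are not independent replicates.

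Cell cycle genes fell together. Of 41 tested genes for S-phase entry and replication, 40 were lower and 0 higher, with a median log2 fold change of -1.47. RRM2, the subunit of ribonucleotide reductase that limits deoxynucleotide supply, went from 183.2, 186.4 and 169.1 CPM in OSI to 41.34, 37.7 and 33.73 CPM in DAC+OSI. The groups were well separated and the fall was 4.78-fold (log2 -2.26, SE 0.13, adjusted p = 1.78e-07). TK1, the thymidine kinase of S phase, fell 6.22-fold from 160 ± 3.19 to 25.7 ± 3.13 CPM. DTL, a substrate receptor of the CRL4 ubiquitin ligase in S phase, fell 5.13-fold, and the repressor E2F8 fell 4.19-fold. CCNE2, a cyclin of S-phase entry, fell 3.72-fold, from 9.36 ± 0.643 to 2.43 ± 1.13 CPM. SLBP, which binds the stem-loop of histone messages, was the member not called (29.1 ± 7.65 against 37.7 ± 2.97 CPM, adjusted p = 0.203).

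Of 42 tested genes of G2 and mitosis, 41 were lower and 0 higher, with a median log2 fold change of -2.28. KIF20A, a kinesin of cytokinesis, was at 67.85, 62.53 and 61.97 CPM in OSI and at 9.07, 9.875 and 7.64 CPM in DAC+OSI. Every DAC+OSI library was below every OSI library, a 7.26-fold fall (log2 -2.86, SE 0.13, adjusted p = 5.05e-08). BUB1B, the spindle checkpoint kinase shown above by its promoter, went from 44.91, 51.38 and 46.18 CPM to 8.644, 6.907 and 6.885 CPM, a 6.33-fold fall. CCNB2, a mitotic cyclin, fell 5.04-fold and KIF23 fell 5.49-fold. UBE2C, the ubiquitin-conjugating enzyme that drives mitotic exit, fell 6.80-fold from 76.4 ± 4.72 to 11.2 ± 1.49 CPM. FOXM1, the factor that activates many of these genes, fell 5.06-fold from 121 ± 5.54 to 23.9 ± 2.4 CPM. TUBB, a β-tubulin, fell 3.56-fold; it has near-identical paralogs, so its counts are uncertain. HMMR, a spindle-associated protein, was the member not called: it stood at 18.39, 18.85 and 18.29 CPM in OSI and 12, 6.421 and 12.7 CPM in DAC+OSI, without overlap but with wide spread (adjusted p = 0.0976).

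DNA repair genes were lower in 21 of 26 cases and higher in 0, with a median of -1.16. RAD54L, a motor protein of homologous recombination, was at 29.96, 31.22 and 28.91 CPM in OSI and at 6.212, 3.94 and 5.493 CPM in DAC+OSI, a 5.69-fold fall. The exonuclease EXO1 fell 6.10-fold. Among the 12 genes of CDK inhibitors, D-type cyclins and their kinases 5 were higher and 2 lower. CDKN1A, which encodes p21, rose 2.19-fold, from 32.52, 33.36 and 33.23 CPM to 66.49, 73.31 and 76.96 CPM, with no overlap. CDKN2B, which encodes p15, rose 1.75-fold. CDKN2C, which encodes p18, fell 3.68-fold, from 12.7 ± 0.385 to 3.48 ± 0.618 CPM. The number of genes called lower in the G1/S, mitosis and repair lists stayed within 1.5 times under each alternative analysis. The count of 5 in the list of CDK inhibitors, cyclins and kinases was 3 without OSI 2 or OSI 3.

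For most of these genes the fall was larger with osimertinib than without. Dauricine alone lowered 4 of 41 G1/S genes and 25 of 42 mitosis genes, with medians of -0.20 and -0.72. The difference between the effects was called below 0 for 27 of 41 and 30 of 42, where 1.91% of all genes were called below, and for 40 and 35 when DAC+OSI 2 was left out. FAM111B, a protease of DNA replication, had the largest such difference of the genes named here among those below 0: -2.66 (adjusted p = 0.000424), with 30.8 ± 1.55 CPM in OSI and 6.3 ± 1.98 CPM in DAC+OSI. NPNT, the matrix protein nephronectin, differed by -2.63 and went from 18.2 ± 0.473 to 4.51 ± 1.66 CPM. RRM2 differed by -1.96 (SE 0.17, adjusted p = 0.000151): it was at 75.02, 67.19 and 75.29 CPM in Control and at 56.78, 65.8 and 54.13 CPM in DAC, both well below OSI. For the mean log2 CPM over the G1/S list the values were 4.16 to 4.19 in Control, 5.24 to 5.33 in OSI, 3.93 to 4.05 in DAC and 3.67 to 3.80 in DAC+OSI. The OSI libraries were thus the high group, and DAC+OSI lay below Control. For the mitosis list DAC+OSI was also lowest, at 3.23 to 3.67, against 5.48 to 5.64 in OSI, 4.96 to 5.27 in Control and 4.38 to 4.57 in DAC.

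**Figure D3:**
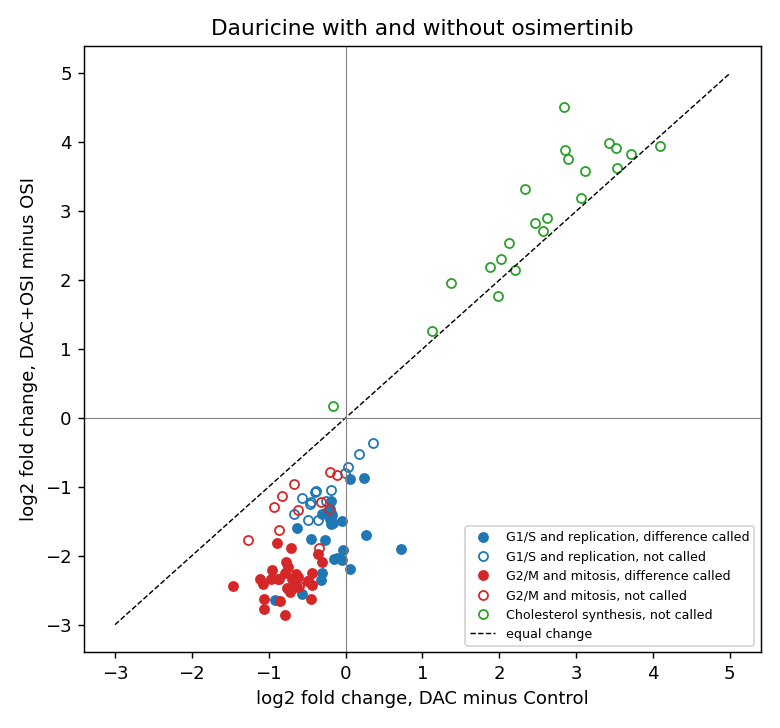
Log2 fold change of dauricine without osimertinib (DAC minus Control, horizontal) against that on top of osimertinib (DAC+OSI minus OSI, vertical), 1 point per tested gene of 3 lists. Filled points had a called difference between the effects: 27 of 41 G1/S genes, 30 of 42 mitosis genes and 0 of 22 cholesterol genes; most cell cycle points lie below the dashed line of equal change.

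SAT1, the gene in the series' title, was higher in DAC+OSI in every library. It was at 92.51, 75.93 and 78.47 CPM in OSI and at 197.4, 106.2 and 190.7 CPM in DAC+OSI, where DAC+OSI 2 was closest to the OSI libraries. The rise was 2.0-fold (log2 1.0, SE 0.21, adjusted p = 0.00491) and 2.31-fold without DAC+OSI 2 (adjusted p = 2.57e-06). Dauricine alone raised SAT1 1.89-fold, from 79.25, 61.8 and 78.53 CPM in Control to 127.9, 132.9 and 153.4 CPM in DAC, and the difference between the effects was 0.09 (SE 0.29, adjusted p = 0.927). Of 17 tested polyamine genes 3 were higher (17.6%, against 9.01% of all genes) and 0 lower; the count was 1 without OSI 1 or OSI 2, and 5 higher and 1 lower without DAC+OSI 2. SAT2, a related acetyltransferase, rose 1.46-fold (adjusted p = 0.0432) with overlapping libraries, a call made in 8 of 21 alternative analyses. SMOX, the oxidase that acts directly on spermine, was at 49.2 ± 1.09 CPM in OSI and 49.7 ± 16.4 CPM in DAC+OSI (adjusted p = 0.983).

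Among 24 tested ferroptosis drivers 8 were higher (33.3%, against 9.01% of all genes) and 1 lower (4.17%, against 7.96%). The median log2 fold change was 0.26. Without DAC+OSI 2 the counts were 8 and 4, and without OSI 3 they were 5 and 1. ACSL4, which activates polyunsaturated fatty acids for membrane lipids, was at 80.75, 78.79 and 84 CPM in OSI and at 302.6, 132.7 and 306.8 CPM in DAC+OSI. All DAC+OSI libraries were higher, DAC+OSI 2 the least, and the rise was 3.05-fold (adjusted p = 0.00182). TFRC, the transferrin receptor, rose 1.66-fold, from 242.8, 243 and 238.6 CPM to 452.2, 309.2 and 437.8 CPM (adjusted p = 0.00529). HMOX1, which frees iron from haem, rose 2.53-fold, from 15.2 ± 1.08 to 38.6 ± 5.25 CPM. NCOA4, the receptor that delivers ferritin to lysosomes, rose 1.57-fold (adjusted p = 0.0264), a call made in 15 of 21 alternative analyses.

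Ferroptosis defence genes were split, with 4 of 25 higher (16%, against 9.01% of all genes) and 3 lower (12%, against 7.96%). Without DAC+OSI 2 the counts were 8 and 6, where 2802 and 2990 of all 20820 genes were called higher and lower. The sterol and fatty acid enzymes DHCR7 and SCD, both placed on this list, were among those that rose. Whether DHCR7 holds ferroptosis back or promotes it was not tested, so its rise is not read as a gain of defence. GPX4, the peroxidase that repairs lipid peroxides, was at 585, 542.7 and 577.8 CPM in OSI and at 464, 1058 and 442.9 CPM in DAC+OSI. DAC+OSI 2 was above and the other DAC+OSI libraries below every OSI library: log2 0.20 (adjusted p = 0.665) with all libraries and -0.35 (adjusted p = 0.0416) without DAC+OSI 2. SLC7A11, the cystine carrier, was at 169.2, 191.2 and 185.7 CPM in OSI and at 315.6, 151.9 and 304.1 CPM in DAC+OSI, with 0.50 on the log2 scale (adjusted p = 0.182) and 0.74 (adjusted p = 0.00136) without DAC+OSI 2. The heavy ferritin chain FTH1, which has many pseudogenes and is uncertain for that reason, ranged from 5204 to 19140 CPM in DAC+OSI and from 5338 to 6299 CPM in OSI (adjusted p = 0.135). FTL, the light chain, was at 6139 ± 222 and 7503 ± 549 CPM (adjusted p = 0.108). AIFM2, also called FSP1, which reduces coenzyme Q, had overlapping libraries (log2 -0.17, adjusted p = 0.54) and was lower without DAC+OSI 2 (log2 -0.42, adjusted p = 0.0174). GSS, the glutathione synthetase, fell 2.11-fold, from 142.6, 134 and 127.3 CPM to 66.1, 66.84 and 58.84 CPM, and MBOAT1, an acyltransferase of phospholipid remodelling, fell 3.23-fold. AKR1B10, a reductase counted among NRF2 targets, fell 1.78-fold; it has close paralogs. Of the 30 NRF2 targets 4 were higher (13.3%) and 5 lower (16.7%). Of 21 iron genes 7 were higher (33.3%) and 2 lower (9.52%). TFR2, transferrin receptor 2, was among those that fell. It went 1.85-fold down, from 5.23 ± 0.245 to 2.85 ± 0.397 CPM (adjusted p = 0.00582), and its groups did not overlap. Without DAC+OSI 2 the NRF2 counts were 7 and 8. The iron count of 7 was 3 to 4 when an OSI library or DAC+OSI 1 was left out.

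**Figure D4:**
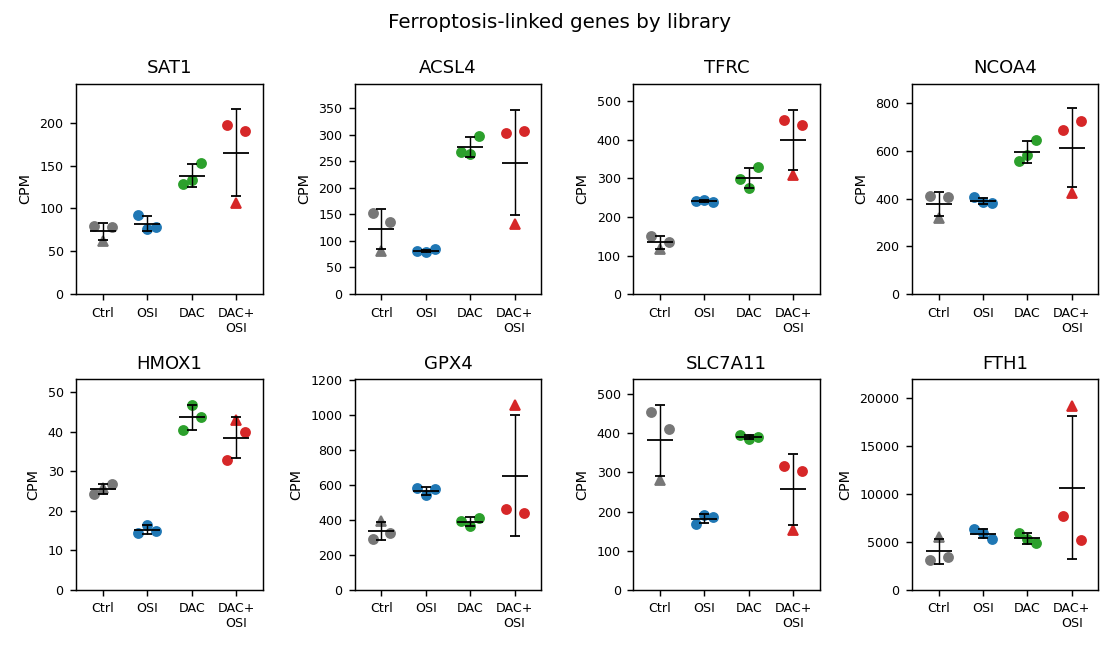
CPM by library (points; linear axis from 0) with mean and SD (bars) for 8 ferroptosis-linked genes in the 4 groups; triangles mark Control 2 and DAC+OSI 2. SAT1 ran from 75.93 to 92.51 CPM in OSI and from 106.2 to 197.4 CPM in DAC+OSI; the triangle lies nearest to OSI for SAT1, ACSL4, TFRC and NCOA4 and far above it for GPX4 and FTH1.

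Part of the integrated stress response and of the endoplasmic reticulum chaperones was higher with dauricine on top of osimertinib than with osimertinib without it. Of 38 tested effectors of ATF4 and CHOP, 11 were higher (28.9%, against 9.01% of all genes) and 2 lower (5.26%, against 7.96%). The median log2 fold change was 0.40. ATF4 itself, ATF3, ASNS, PSAT1 and PHGDH were among the members not called. Dauricine alone changed that list in the other direction, with 1 higher and 17 lower and a median of -0.53, and the difference between the effects was called above 0 for 10 of 38, against 1.01% of all genes, and for 23 without DAC+OSI 2. TRIB3, a pseudokinase induced by CHOP, was at 158.4, 157.8 and 144.8 CPM in OSI and at 374.9, 521.4 and 384.6 CPM in DAC+OSI, a 2.78-fold rise (adjusted p = 3.1e-05). It was at 329.7, 436.9 and 313.4 CPM in Control and at 343.8, 361.2 and 370.4 CPM in DAC, so OSI was the low group and the difference between the effects was 1.48 (SE 0.22, adjusted p = 0.00325). AARS1, the alanyl-tRNA synthetase, rose 1.90-fold, with a difference of 0.87. Of 26 endoplasmic reticulum chaperones and related genes 8 were higher (30.8%) and 0 lower. HSPA5, the chaperone BiP, rose 2.09-fold, from 348.7, 321.8 and 333.9 CPM to 647.1, 750.8 and 703.7 CPM, without overlap. HERPUD1 and DNAJB9, which serve the degradation of misfolded proteins, rose 2.01-fold and 1.96-fold. VEGFA, the angiogenic growth factor, rose 2.81-fold, from 107 ± 3.2 to 300 ± 39.7 CPM, and was at 250 CPM in Control on average. When the fit used only the OSI and DAC+OSI libraries, 6 ATF4 effectors and 3 chaperones were called higher. Leaving out an OSI library gave 6 to 7 and 4 to 5, and leaving out DAC+OSI 2 gave 14 of each list, while the ATF4 effectors called lower went from 2 to 6. HSPB8, a small heat shock protein that assists autophagy, rose 5.06-fold and was the only one of 16 heat shock genes called; 3 were called higher and 1 lower without DAC+OSI 2.

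Targets and feedback genes of ERK were called at shares near the background. Of 30, 3 were higher (10%) and 4 lower (13.3%), with a median log2 fold change of 0.02. The lower count ran from 1 to 7 as single libraries were left out, with 7 without DAC+OSI 2. DUSP6, a phosphatase that ERK induces to switch itself off, went from 67.88, 55.42 and 54.58 CPM in OSI to 94.71, 136.7 and 108.9 CPM in DAC+OSI, 1.91-fold higher (adjusted p = 0.00055). Both groups lay below Control (207.2 to 223.2 CPM) and DAC (203.8 to 209.5 CPM). LIF, a cytokine of the interleukin 6 family, rose 3.36-fold, from 63.66, 67.95 and 58.66 CPM to 139.1, 333.9 and 167.5 CPM, and 2.37-fold without DAC+OSI 2. DUSP4 rose 1.53-fold and the immediate early factor EGR2 fell 2.85-fold, from 1.52 ± 0.167 to 0.549 ± 0.117 CPM. For DUSP6, LIF and DUSP4 the difference between the effects was called above 0, at 0.99, 1.96 and 0.72.

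**Figure D5:**
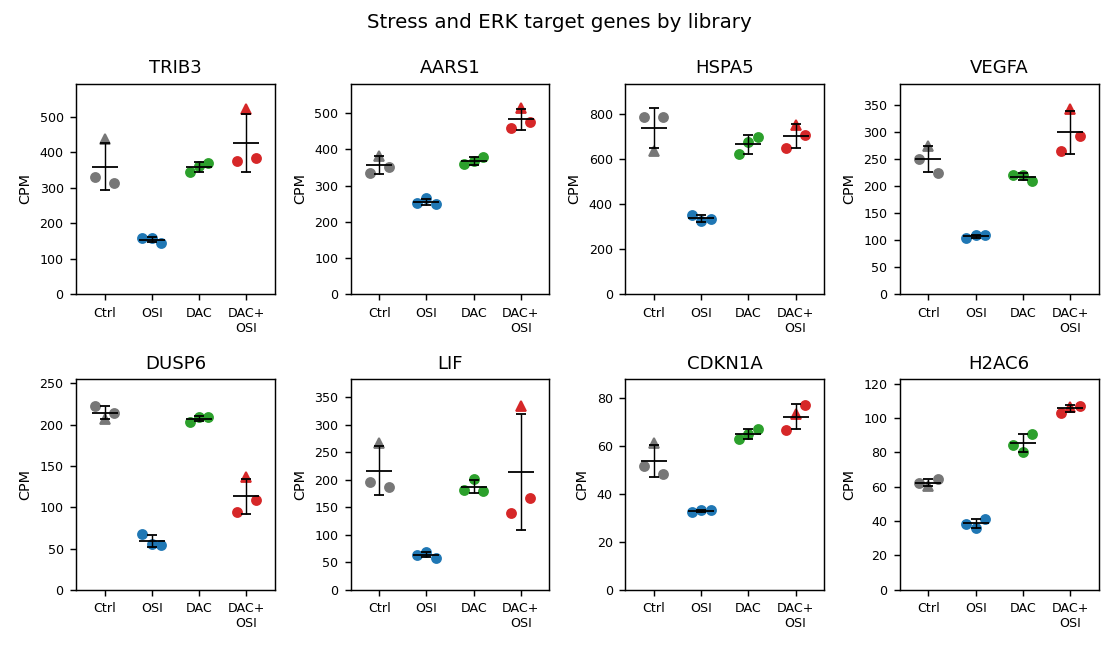
CPM by library (points; linear axis from 0) with mean and SD (bars) for 8 stress, ERK target, CDK inhibitor and histone genes in the 4 groups; triangles mark Control 2 and DAC+OSI 2. OSI is the lowest group in all 8 panels; TRIB3 ran from 144.8 to 158.4 CPM there and from 374.9 to 521.4 CPM in DAC+OSI.

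EGFR itself was at 1159, 1401 and 1456 CPM in OSI and at 1050, 923.4 and 1110 CPM in DAC+OSI. The DAC+OSI libraries were all lower, but the difference missed the threshold (log2 -0.38, SE 0.13, adjusted p = 0.06). It passed in 6 of 21 alternative analyses, among them the one without DAC+OSI 2 (log2 -0.34, adjusted p = 0.0478). CBLB, a ubiquitin ligase for activated EGFR, was the member called of 13 tested receptors and adaptors, with a 2.26-fold rise from 140 ± 14.4 to 315 ± 60.3 CPM; 2 were higher and 3 lower without DAC+OSI 2. Of 12 bypass kinases 3 were lower (25%, against 7.96% of all genes) and 0 higher. The lower count was 2 when any 1 OSI library was left out. Without DAC+OSI 2 it was 5, where 2990 of all 20820 genes were called lower. The list did not fall as a whole: 7 members had a log2 fold change above 0, with a median of 0.17, or -0.29 without DAC+OSI 2. MET, a receptor whose amplification can bypass EGFR, fell 1.57-fold, from 181.3, 180.2 and 182.8 CPM to 120.1, 106.7 and 119 CPM. AXL, a receptor linked to drug tolerance, fell 1.96-fold, from 117.1, 118.9 and 103.2 CPM to 50.21, 76.13 and 47.05 CPM. Neither gene's groups overlapped. YAP and TEAD targets, AXL among them, were lower in 9 of 20 cases and higher in 0, and NT5E, the ectonucleotidase CD73, fell 2.06-fold from 335 ± 15.8 to 163 ± 16.1 CPM.

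Genes of lysosomes and autophagy rose in part. Of 12 MiT/TFE factors, regulators and targets 7 were higher (58.3%, against 9.01% of all genes) and 1 lower (8.33%, against 7.96%). The median log2 fold change was 0.90. The factors TFEB, TFE3 and TFEC were not called, nor was RRAGD. The higher count was 4 when only the compared groups were fitted, and 5 without OSI 1, OSI 3, DAC+OSI 1 or DAC+OSI 3. GPNMB, a membrane glycoprotein and target of these factors, was at 12.12, 13.13 and 12.12 CPM in OSI and at 48.47, 41.59 and 48.09 CPM in DAC+OSI, a 3.70-fold rise. RRAGC, a GTPase that signals amino acids at the lysosome, rose 2.78-fold. MCOLN1 rose 2.78-fold with all libraries, at 23.68, 76.22 and 30.6 CPM in DAC+OSI against 14.01 to 17.44 CPM in OSI, and 1.71-fold without DAC+OSI 2. ATP6V1G1 rose 1.77-fold (adjusted p = 0.0324), and 2 of 18 proton pump genes were called higher (11.1%, against 9.01% of all genes tested), 8 without DAC+OSI 2 and 0 without OSI 1 or OSI 2. Of 42 lysosomal genes 10 were higher (23.8%, against 9.01% of all genes) and 1 lower (2.38%, against 7.96%). The sialidase NEU1 rose 3.94-fold, from 53.3 ± 2.11 to 210 ± 25.3 CPM, and the protease CTSB was the gene that fell, 2.10-fold. Of 29 autophagy genes 10 were higher (34.5%) and 0 lower. The receptor SQSTM1 rose 1.88-fold, from 361.8, 325.1 and 323.3 CPM to 658.2, 629.6 and 614.3 CPM, and ATG9B, a lipid scramblase, rose 2.48-fold. For SQSTM1 dauricine alone gave the same 1.88-fold rise, with a difference between the effects of 0.00 (SE 0.14). The lysosome count of 10 was 5 when any 1 OSI library was left out and 15, with 6 lower, without DAC+OSI 2.

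Several genes with large changes belonged to other programmes. APOBEC3B, a cytidine deaminase with close paralogs, fell 7.67-fold, from 52.76, 55.09 and 50.65 CPM to 7.561, 5.594 and 7.344 CPM (adjusted p = 5.05e-08), and 4 of 7 APOBEC3 genes were lower; the 1 called higher was not called without DAC+OSI 2. ALPP, placental alkaline phosphatase, was at 253.1, 222.7 and 266.8 CPM in OSI and at 34.91, 34.59 and 32.13 CPM in DAC+OSI, a 7.31-fold fall; it too has near-identical paralogs. Both groups were above Control and DAC, where ALPP stayed between 4.139 and 9.56 CPM. KRT4, a keratin of stratified epithelium, fell 12.9-fold, from 27.07, 19.52 and 25.64 CPM to 1.935, 2.092 and 1.614 CPM. SPRR1A, a cornified envelope precursor, rose 6.74-fold, so the squamous list held both directions, with 5 of 15 higher and 4 lower; 2 were lower when any 1 OSI library, DAC+OSI 1 or DAC+OSI 3 was left out. The aldehyde dehydrogenases ALDH1A1 and ALDH3A1 fell 7.57-fold and 5.52-fold, while CYP1B1, a target of the aryl hydrocarbon receptor, rose 3.62-fold. NEAT1, the long RNA of paraspeckles, fell 1.90-fold from 1000 ± 72.9 to 527 ± 95.1 CPM.

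GAS6-AS1 had the smallest adjusted p of the genes named here. It was at 14.49, 15.66 and 16.8 CPM in OSI and at 356.2, 417 and 395.4 CPM in DAC+OSI, a 24.9-fold rise (log2 4.64, SE 0.13, adjusted p = 1.27e-09), and dauricine alone raised it 29.4-fold. The labels do not say whether strand was kept, so its reads cannot be told from those of the gene it overlaps. NPR1, a natriuretic peptide receptor, rose 22.2-fold from 0.354 ± 0.0553 to 7.96 ± 3.32 CPM. MT-CO1, a mitochondrially encoded subunit of cytochrome c oxidase, was 1.5-fold lower (adjusted p = 0.0216), the 1 member called of 13 encoded in the mitochondrion; 7 were called lower without DAC+OSI 2. H2AC6, a replication-type histone gene read here from polyadenylated RNA, rose 2.73-fold from 38.25, 36.23 and 41.39 CPM to 103.1, 106.6 and 107 CPM, and the variant H2AX fell 2.35-fold; 6 of 14 histone genes were higher and 4 lower.

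Genes listed as markers of fibroblasts, blood cells and vessels did not all move one way. COL1A2, a chain of type I collagen, was at 0.1687 and 0.06215 CPM in OSI 1 and 2 and at 0 in OSI 3, and at 0.9052, 13.57 and 1.658 CPM in DAC+OSI, so most of its reads came from DAC+OSI 2 and no fold is given. Control 2, at 2.439 CPM, was the highest library of its group. COL1A1, the other chain, was at 5.472, 5.842 and 7.544 CPM in OSI and at 25.27, 78.27 and 38.1 CPM in DAC+OSI, a 7.47-fold rise and 4.94-fold without DAC+OSI 2. ACTA2, smooth muscle actin, rose 5.42-fold, and 4.12-fold without DAC+OSI 2. PTPRC, the leukocyte antigen CD45, rose 4.30-fold with values of 6.674, 17.75 and 5.552 CPM in DAC+OSI, and 2.62-fold without DAC+OSI 2. VWF, an endothelial glycoprotein, rose 6.85-fold, and 4.13-fold without it. TAGLN, the smooth muscle protein transgelin, fell 1.65-fold, from 9.666, 9.302 and 9.488 CPM to 5.609, 6.178 and 5.493 CPM (adjusted p = 0.00366), and 1.74-fold without DAC+OSI 2. Each of these genes remained called when DAC+OSI 2 was left out.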

How the data were processed

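Messenger RNA was measured in 12 libraries of 4 groups of 3, and 6 of them make the comparison of DAC+OSI with OSI. Per the labels' protocols, poly(A) RNA was enriched with oligo(dT) beads, fragmented, primed with random hexamers and amplified by PCR. The authors deposited raw counts of reads per Ensembl gene. The submitters' processing notes name CASAVA, HISAT2 and featureCounts. Their versions and settings, the genome build, the annotation and the strand setting are not stated there. Identifiers were given symbols from a list of gene names, and gene types, chromosomes and GC content from GENCODE 29.

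Libraries held 24.9 to 66.9 M counts. A count of 0 allows up to 3 counts (0.0449 to 0.12 CPM by library), for counting error only. The counts were tested with edgeR 4.0.16 in R 4.3.3: filterByExpr, scaling by the trimmed mean of M values, and a quasi-likelihood fit to all 12 libraries with 1 mean per group, so that the 4 groups share 1 estimate of spread (biological coefficient of variation 20.9%). Tests were two-sided with Benjamini-Hochberg adjustment over 20820 genes within each of 3 contrasts: DAC+OSI minus OSI, DAC minus Control, and their difference. The SE is the log2 fold change divided by the square root of the F statistic. On simulated counts with the same libraries, the comparison of DAC+OSI with OSI recovered 8.96% of 1.5-fold, 59.7% of 2-fold and 97% of 4-fold changes, and called 0.0485% of unchanged genes. The simulation changed 67, 67 and 66 genes at these folds and left 20620 unchanged, against 3533 genes called in the data. The adjusted threshold depends on that share, so these rates need not hold for the data.

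The comparison and the 47 gene lists were chosen with earlier results of these data known, so list counts are descriptions beside the share of all genes called, and no list was tested as a set. Genes named in the text are the largest changes, the called members of each list with the smallest adjusted p and genes tied to ferroptosis. Genes with the largest called differences between the effects, above and below 0, were also named. PMVK, SLBP, HMMR, SCD5 and MCOLN1, named as the exceptions of their lists or for their promoter, were named after their values were seen. Motifs were searched on both strands of RefSeq promoters. Alternatives were other scalings, no filter, DESeq2 1.42.0, limma-voom 3.58.1, only the compared groups, a replicate block, 10 libraries without Control 2 and DAC+OSI 2, a GC correction (lowess span 0.3) and leaving out each library in turn.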

Additional observations from a re-analysis of the deposited data

Results flagged for a closer look

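For 46 of the 102 genes named above that were followed through the alternatives, dauricine's effect with osimertinib differed from its effect without it, by the edgeR test of the difference itself. Over all genes tested the share was 2.92%, but named genes were chosen for large changes, so these shares are not comparable. FAM111B, NPNT, CCNE2, COL1A1, COL1A2 and ACTA2 met the rule for the largest differences, so their calls were fixed by that choice. The values in parentheses are log2 fold changes of DAC+OSI over OSI minus those of DAC over Control. In the cell cycle and repair genes dauricine's effect was lower with osimertinib for BUB1B (-1.81), CCNB2 (-1.46), CCNE2 (-2.62), DTL (-2.04), E2F8 (-2.02), EXO1 (-2.08), FOXM1 (-1.37), KIF20A (-2.08), KIF23 (-1.82), RAD54L (-1.80), RRM2 (-1.96), TK1 (-1.72), TUBB (-1.24) and UBE2C (-1.70). It was also lower for AKR1B10 (-1.17), ALDH1A1 (-1.82), ALPP (-2.11), APOBEC3B (-1.76), CDKN2C (-2.13), FAM111B (-2.66), H2AX (-0.89), KRT4 (-1.43), MBOAT1 (-1.21), NEAT1 (-1.05), NPNT (-2.63) and NT5E (-0.69). In genes of the stress responses and the growth factor VEGFA it was higher for AARS1 (0.87), DNAJB9 (1.17), HERPUD1 (0.83), HSPA5 (1.21), TRIB3 (1.48) and VEGFA (1.69), and in ERK targets for DUSP4 (0.72), DUSP6 (0.99) and LIF (1.96). Among lipid and lysosomal genes it was higher for ACLY (0.85), ACSS2 (1.42), LPIN1 (0.83), NEU1 (0.79) and NPC1 (0.72), and lower for SCD5 (-1.32). It was higher for the p21 gene and a histone gene, CDKN1A (0.85) and H2AC6 (1.0). For the collagen and actin genes it was higher for ACTA2 (5.27), COL1A1 (3.23) and COL1A2 (9.99); COL1A2 rests on 10 counts over the 3 OSI libraries, so its fitted value depends on the prior count, and DAC+OSI 2 and Control 2 were the highest libraries of their groups for all 3 genes.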

How the results depend on the processing

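The comparison of DAC+OSI with OSI called 3533 genes, 1875 higher and 1658 lower. It called 3534 with relative log expression scaling, 3533 with upper quartile scaling, 4109 without a filter, 4546 with DESeq2 and 3525 with limma-voom. Fitting only the compared groups called 1800 (938 higher, 862 lower), leaving out both Control 2 and DAC+OSI 2 called 8730 (4488 and 4242), and a GC correction called 5552 (2957 and 2595). Leaving out single libraries gave 2209 (without OSI 2) to 5836 (without DAC+OSI 2) calls, with 1106 to 2828 higher and 1103 to 3008 lower; without OSI 1 there were 2315. DAC against Control called 1964 genes, 2981 with DESeq2, 3241 with only its groups, 5541 with 10 libraries, 3755 with the GC correction and 782 (without DAC 3) to 4811 (without DAC+OSI 2) with single libraries left out; libraries of all 4 groups share 1 estimate of spread. The difference between the effects was called for 608 genes, 1354 without a filter, 1334 with DESeq2, 4339 with 10 libraries, 1697 with the GC correction and 330 (without DAC 3) to 1463 (without DAC+OSI 2). The cause was not tested, beyond the fewer samples that some of these fits hold. In none of the alternatives was one of the 3533 genes called in the opposite direction. GPX4, at 0.20 with all libraries, was at -0.34 with 10 libraries (adjusted p = 0.00116) and between -0.35 (without DAC+OSI 2) and 0.42 (without DAC+OSI 3) with single libraries left out, and SMOX, at 0.01, was at -0.30 with 10 libraries (adjusted p = 0.00436).

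Same-numbered OSI and DAC+OSI libraries deviated together with correlations of 0.019, 0.016 and 0.079, under the 0.1 set for pairing, so the numbers were not taken as pairs. Same-numbered Control and DAC+OSI libraries, which are not compared directly but enter the difference between the effects, correlated at 0.285, 0.431 and 0.2. Unlike numbers also correlated: Control 1 with DAC+OSI 3 at 0.282 and Control 3 with DAC+OSI 1 at 0.168. Control 2 stood at -0.351 and -0.373 with DAC+OSI 1 and 3, and DAC+OSI 2 at -0.338 and -0.219 with Control 1 and 3. These values thus set the libraries numbered 2 apart from the rest. With the replicate block 3831 genes were called, 3407 of them among the 3533, with 2408 for DAC against Control and 791 for the difference between the effects. The depth of DAC+OSI 2, the lowest, limits low genes most. In simulated data, where fewer genes changed, 59.7% of 2-fold changes were recovered. A gene that missed the threshold is therefore not shown to be unchanged.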
